A study of Mus musculus with 6 samples.

Results

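The 3 small RNA libraries of mouse myocardium taken at a post-mortem interval of 6 d are described here, 3 of the 6 libraries of the series. They were chosen by their titles alone, which name the interval, and are numbered replicates 1, 2 and 3 as labelled. The other 3 libraries are myocardium at 0 h after death. Their values stand beside some results without a test. The labels give no strain, age, sex or treatment, and do not say whether the 3 libraries came from separate hearts, so the spread among them may be biological or technical.

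MicroRNAs (miRNAs) are short RNAs that guide Argonaute proteins to messenger RNAs, mainly through the seed at bases 2 to 8. A precursor hairpin gives a 5p and a 3p arm, of which usually 1 is loaded and kept. Several miRNAs belong largely to single cell types. Those of heart muscle, endothelium, red blood cells, liver and neurons are far apart in function and so serve as markers of which tissues contributed RNA to a sample. In bulk RNA, a different number of cells of a type and a different amount of RNA per cell cannot be told apart.

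Across the 984 miRNAs listed, replicate 1 held 1889594 reads, replicate 2 held 699670 and replicate 3 held 617069. No read was found in any of the 3 for 284 miRNAs, and 428 had reads but a mean under 10. The 272 with a mean of at least 10 are those described. The rest held 0.0829% of the reads. The limit fell between miR-16-2-3p, just above it, and let-7j, at 9.50. Levels are on the deposited scale with its log2(x + 1) undone, called normalised values here. On that scale 1 read was worth 0.636, 1.32 and 0.902 in replicates 1, 2 and 3.

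For each of the 272, the ratio of its highest to its lowest library was taken with an exact 95% interval from the reads of those 2 libraries. The interval covers counting error only and compares libraries, not conditions. A miRNA was called even if the whole interval lay under 1.5, uneven if it lay above 3, intermediate if it lay between these limits, and undetermined if it crossed one. Even miRNAs numbered 23 (8.46% of the 272) and uneven ones 25 (9.19%). Another 51 were intermediate, and for 173 the reads did not settle the class. These 173 had a median of 124 reads over the 3 libraries, the even miRNAs 3261.

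The sequences below are those of the uneven and even miRNAs that the results turn on, from RefSeq (GRCm38.p6), 5′ to 3′, with the seed in capitals. The first 4 were highest in replicate 2 and are rich in G and C. The next 4 were highest in replicate 3, and the 3 after them in replicate 1. The last 3 were even.
miR-6538: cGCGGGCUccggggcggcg
miR-2137: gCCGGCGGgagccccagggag
miR-6236: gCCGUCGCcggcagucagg
miR-6240: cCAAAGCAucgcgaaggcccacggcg
miR-9-5p: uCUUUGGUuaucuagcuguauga
miR-9-3p: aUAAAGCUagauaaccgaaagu
miR-129-5p: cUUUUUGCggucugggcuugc
miR-1843a-3p: uCUGAUCGuucaccuccauaca
miR-101a-3p: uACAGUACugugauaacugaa
miR-101c: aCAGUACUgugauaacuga
miR-340-5p: uUAUAAAGcaaugagacugauu
miR-22-3p: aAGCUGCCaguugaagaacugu
miR-99a-5p: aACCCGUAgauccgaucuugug
miR-29a-3p: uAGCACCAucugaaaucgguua

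Positions are those of RefSeq, since the authors' build is not stated. In GRCm38.p6, miR-6538 lies at chr12:26414970-26414988 on the minus strand, in an intron of Rnf144a. The sequence of miR-2137 is at chrX:72992113-72992133 on the plus strand, in an intron of Zfp185. That of miR-1843a-3p, at chr12:80391615-80391636 on the minus strand, lies in an exon of the small Cajal body RNA Scarna3b, itself within an intron of Dcaf5. The even miR-22-3p is at chr11:75463772-75463793 on the plus strand, in an exon of its host transcript Mir22hg. All 19 bases of miR-101c lie within miR-101a-3p from its base 2, so reads of these 2 rows may be shared and their values are uncertain.

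The 3 libraries had the same leading miRNA and much the same abundant miRNAs, but concentrated their reads on them to different degrees. The heart miRNA miR-1a-3p, which represses growth and conduction genes in cardiac muscle, took 44.3% of the reads of replicate 1, 33.5% of replicate 2 and 19.8% of replicate 3. The 10 most abundant held 85.0%, 80.8% and 70.3%. Replicate 1 was the most concentrated by both measures and replicate 3 the least. It took 17, 20 and 28 miRNAs to reach 90% of the reads, and the Shannon entropy was 3.46, 3.94 and 4.69 bits. In the 0 h libraries the 10 most abundant held 79.3%, 81.4% and 81.7%. Of the 10 most abundant, 8 were shared by all 3 libraries at 6 d, and 17 of the 20 most abundant.

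The number of miRNAs seen depended on depth. Reads were found for 542, 513 and 542 miRNAs in replicates 1, 2 and 3, while 432.9, 497.6 and 542 would be expected at the depth of replicate 3. At equal depth, then, replicate 1 held the fewest miRNAs and replicate 3 the most, the inverse of their order by depth.

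**Figure D1:**
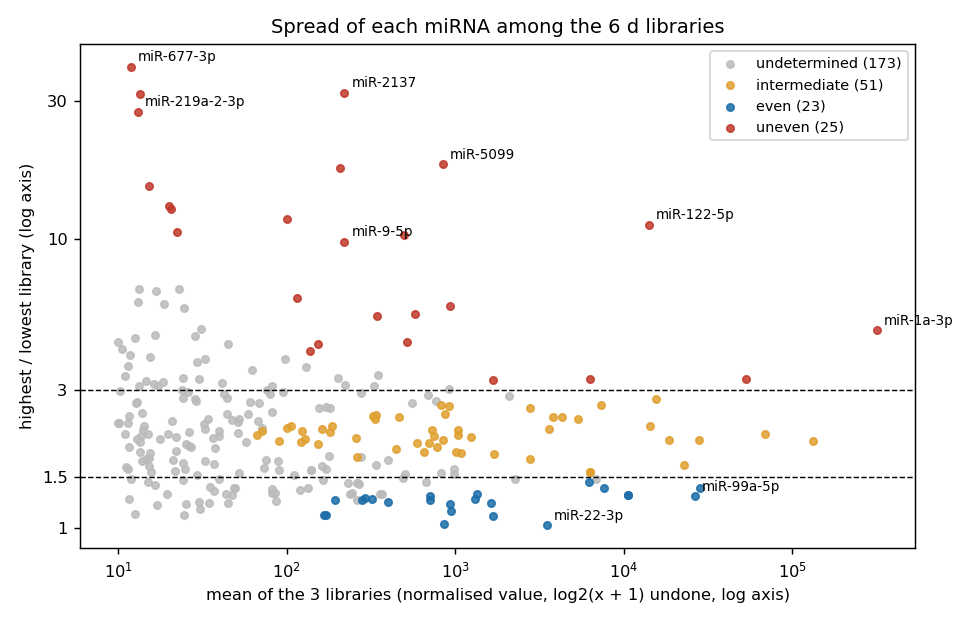
Each point is 1 of the 272 miRNAs, with its mean over the 3 libraries at 6 d (x, normalised value, log axis) against the ratio of its highest to its lowest library (y, log axis). Dashed lines mark ratios of 1.5 and 3. The uneven miRNAs run from the most abundant, miR-1a-3p, to those with means near 10, and reach a ratio of 39.5.

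A typical miRNA differed by a ratio of 2.10 between its highest and lowest library (median over the 272, quartiles 1.55 and 2.92). The plot of ratio against mean shows that this spread was not confined to low miRNAs. With reads scaled by library totals, so that both intervals could be set side by side, the 233 miRNAs with at least 10 of every 1000000 reads in both groups had a median ratio of 2.36 at 6 d and 1.67 at 0 h. The ratio was wider at 6 d for 168 of them (72.1%). This difference was not tested, and the 6 d libraries were shallower, with 617069 to 1889594 reads against 4468547 to 7906557 at 0 h. The ratio has fewer libraries to range over when 1 is left out, and its median was then 1.47 without replicate 1, 1.61 without replicate 2 and 1.57 without replicate 3. The number of even miRNAs was 55, 49 and 53, and that of uneven ones 9, 19 and 10, without replicates 1, 2 and 3 in turn.

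On the deposited scale the main heart muscle miRNA differed among the libraries by more than most. Normalised values of miR-1a-3p were 532712 in replicate 1, 310234 in replicate 2 and 110064 in replicate 3, a ratio of 4.84 (4.81 to 4.87). By share of reads its ratio was 2.24, below the median of 2.37 over the 272 on that scale, so that it then differed by less than most. Its muscle partner miR-133a-3p did not follow it, with 1751, 2589 and 2471, lowest where miR-1a-3p was highest. The 3 miRNAs encoded in cardiac myosin genes, miR-208a-3p, miR-208b-3p and miR-499-5p, were each highest in replicate 1, with 1284, 867 and 799 for miR-499-5p, and all 3 were undetermined. By library totals, 2 of the 3 were highest in replicate 1 and 1 in replicate 3. Over all 272, replicate 1 was highest for 124 on the deposited scale and for 43 by library totals, where replicate 3 was highest for 186. Of the 6 listed heart and striated muscle miRNAs in the files, 3 reached a mean of 10, and the passenger arm miR-1a-2-5p was at 0 in all 3 libraries. The cardiac myosin list held 0.121%, 0.100% and 0.155% of the reads, below the 0 h range of 0.183% to 0.387%, which was not tested. Each library thus had miR-1a-3p as the leading miRNA and reads of miR-208a-3p and miR-499-5p. The list of miR-1a-3p covers striated muscle as well as heart, so its lead alone does not verify the myocardial label.

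Vascular and stromal miRNAs ranged from even to uneven on the deposited scale. There the median ratio was 1.47 for the 2 endothelial miRNAs, 2.20 for the 4 of smooth muscle and pericytes and 1.57 for the 10 of the fibroblast list, beside 2.10 for all 272. The endothelial miR-126a-3p, which maintains vascular integrity, had values of 34088, 26358 and 24644 and was even, with a ratio of 1.38. Smooth muscle miR-143-3p, at 89835, 42671 and 27231, was uneven with a ratio of 3.30 (3.26 to 3.34), whereas both arms of miR-145a, transcribed with it, were even. By share of reads the order turned, with ratios of 1.62 for miR-143-3p, 2.33 for miR-145a-5p and 1.68 for miR-145a-3p. No miRNA of this list was uneven with median-of-ratios factors or library totals. Of the 10 fibroblast-list miRNAs, 2 were even, 4 intermediate and 4 undetermined, and none was uneven. Of the 4 intermediate, miR-199a-3p and miR-199b-3p have the same mature sequence and share reads, so 1 sequence is counted there as 2 rows. Among the 10, miR-29a-3p, which targets collagen messages, had 1719, 1722 and 1560, a ratio of 1.10. By contrast the values of its seed relative miR-29b-3p spanned a ratio of 6.73, which its reads left undetermined.

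**Figure D2:**
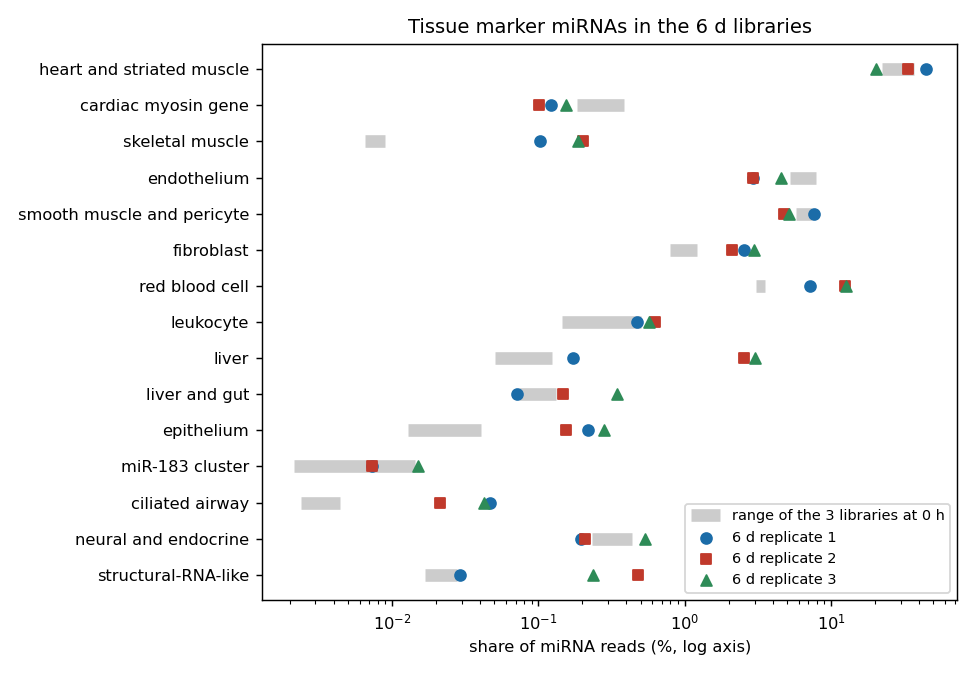
Share of the miRNA reads (x, percent, log axis) held by each list of marker miRNAs (y) in replicates 1, 2 and 3 at 6 d, with the range of the 3 libraries at 0 h as a grey bar. The liver list is 0.173% in replicate 1 but 2.53% and 3.002% in replicates 2 and 3, and the structural-RNA-like list is highest in replicate 2.

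The summed share of red blood cell miRNAs lay above the range of 0 h in each library, which was not tested, and it was lower in replicate 1 than in the other 2. The 7 listed red blood cell miRNAs held 7.21%, 12.4% and 12.6% of the reads of replicates 1, 2 and 3, against 3.06% to 3.52% at 0 h. The sum counts both of the nearly identical rows miR-486a-5p and miR-486b-5p, on which the order of replicates 2 and 3 rests. In each library miR-451a alone exceeded the 0 h range of the sum. This erythroid miRNA, matured by Argonaute 2 without Dicer, was at 66865, 95485 and 45135 normalised (ratio 2.12, intermediate). Its share was 5.56% (exact 95% interval 5.53 to 5.59), 10.3% (10.2 to 10.4) and 8.11% (8.04 to 8.17), against 1.02% to 1.28% at 0 h, so that replicate 2 was highest on both scales. Another abundant miRNA of the list, miR-486a-5p, was even at 9741, 9560 and 12511, though its row and that of miR-486b-5p were nearly identical and share reads. As shares of reads it held 0.810%, 1.03% and 2.25%, against 1.01% to 1.14% at 0 h. It thus lay below or within that range in replicates 1 and 2 and above it in replicate 3. As shares, miR-451a and miR-486a-5p thus had different highest libraries, replicate 2 and replicate 3. The leukocyte list held 0.476%, 0.628% and 0.575%, against 0.146% to 0.504% at 0 h, with 5 of its 7 miRNAs of mean 10 or more intermediate, 2 undetermined and none uneven.

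The liver miRNA miR-122-5p, the main miRNA of hepatocytes, was among the 12 most abundant at 6 d on average and was very unequal among the libraries. Reads numbered 3277 in replicate 1, 17725 in replicate 2 and 18525 in replicate 3. Replicate 1 stood well below the others, at 0.173% of its reads (exact 95% interval 0.168 to 0.179), against 2.53% (2.497 to 2.57) and 3.002% (2.96 to 3.04). On the normalised scale the values were 2086, 23460 and 16716, a ratio of 11.2 (10.8 to 11.7). Of every 1000000 reads, the 0 h libraries held 508 to 1247 of it and the lowest 6 d library 1734. Of the liver list's 2 miRNAs, the passenger arm miR-122-3p had 0, 0 and 1 reads.

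miRNAs shared by liver and gut differed too. Their summed share was 0.0714%, 0.147% and 0.345% in replicates 1, 2 and 3, in the same order as the share of miR-122-5p. Values of miR-192-5p were 362, 668 and 1049, and of miR-194-5p, its cluster partner, 454, 675 and 837. Both were therefore lowest in replicate 1 and highest in replicate 3, while miR-215-5p, with the seed of miR-192-5p, was highest in replicate 1 at 40.1, against 14.6 and 32.5. By library totals all 3 were highest in replicate 3, as were 186 of all 272. The part of liver or gut RNA in the difference between libraries was not tested.

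Most listed neural and endocrine miRNAs with a mean of at least 10 were highest in replicate 3. Of 16 listed neural and endocrine miRNAs in the files, 8 had a mean of at least 10, and 7 of these were highest in replicate 3, on the deposited scale, with median-of-ratios factors and by library totals. Over all 272, replicate 3 was highest for 80, 91 and 186 on these scales, so by library totals the count is near that of all miRNAs. Of the 8, miR-9-3p and miR-129-5p were under 10 normalised in replicates 1 and 2 and passed the limit only through replicate 3. Their place in the count was thus fixed by the limit. Reads of miR-9-5p, a miRNA of neural progenitors and neurons, were 110, 41 and 590 in replicates 1, 2 and 3, with normalised values of 70.0, 54.3 and 532. Replicates 1 and 2 lay close together and replicate 3 stood alone, giving a ratio of 9.81 (7.14 to 13.8). The other arm of the same precursors, miR-9-3p, had 9, 4 and 62 reads, so that both arms gave the same order. The neuronal miR-129-5p had 11, 3 and 56 reads, a ratio of 12.7 (4.14 to 63.6).

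The oligodendrocyte miRNA miR-219a-2-3p, outside that list, had 2, 2 and 39 reads, a ratio of 27.6 (7.16 to 236). It passed the mean of 10 only through replicate 3. Reads of miR-124-3p, an abundant miRNA of neurons, were 0, 0 and 7, of which the zeros are below the floor of 3 reads, 1.91 and 3.97 normalised. Both markers were present in replicate 3 at counts under 40, and their levels are uncertain. Neural miRNAs were present at 0 h as well. The list held 0.232% to 0.436% of the 0 h reads, and 0.197%, 0.207% and 0.533% at 6 d. The list sum of replicate 3 was thus above the range of the 0 h libraries, and those of replicates 1 and 2 below it. Most of the list's reads were of miR-128-3p (1413, 348 and 1544 at 6 d) and miR-7a-5p (2003, 968 and 778). As a share of reads, miR-7a-5p was above its 0 h range in all 3 libraries. The share of miR-128-3p was below its 0 h range in replicates 1 and 2 and within it in replicate 3. These differences were not tested. Of every 1000000 reads, miR-9-5p took 158, 327 and 640 in the 0 h libraries, a ratio of 4.06, and 58.2, 58.6 and 956 at 6 d. The part of nerve tissue in the difference between libraries was not tested.

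Epithelial and skeletal muscle miRNAs were present in all 3 libraries and varied about as much as a typical miRNA, with a median ratio of 1.98 for the epithelial and 1.88 for the 2 skeletal muscle miRNAs, beside 2.10 for all 272. The 11 listed epithelial miRNAs in the files held 0.218%, 0.155% and 0.282%, against 0.0128% to 0.0407% at 0 h, which was not tested. Most of the 0 h share was miR-203-3p, with 1315, 1221 and 506 reads. As a share of reads it lay within its 0 h range in all 3 libraries at 6 d. By contrast, miR-200a-3p took 5.565 to 11.0 of every 1000000 reads at 0 h and 552 to 1011 at 6 d. Of 8 epithelial miRNAs with a mean of at least 10, none was uneven or even, 2 were intermediate and 6 undetermined. Among the intermediate was miR-200a-3p, at 1011, 511 and 563 normalised. The skeletal muscle miRNA miR-206-3p had 978, 1440 and 685, a ratio of 2.10, near the median of all 272. Of every 1000000 reads it took 7.40 to 14.1 at 0 h and 813 to 1555 at 6 d, so all 3 libraries at 6 d were above all 3 at 0 h, which was not tested. Ciliated airway miRNAs held 0.0470%, 0.0214% and 0.0425%.

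**Figure D3:**
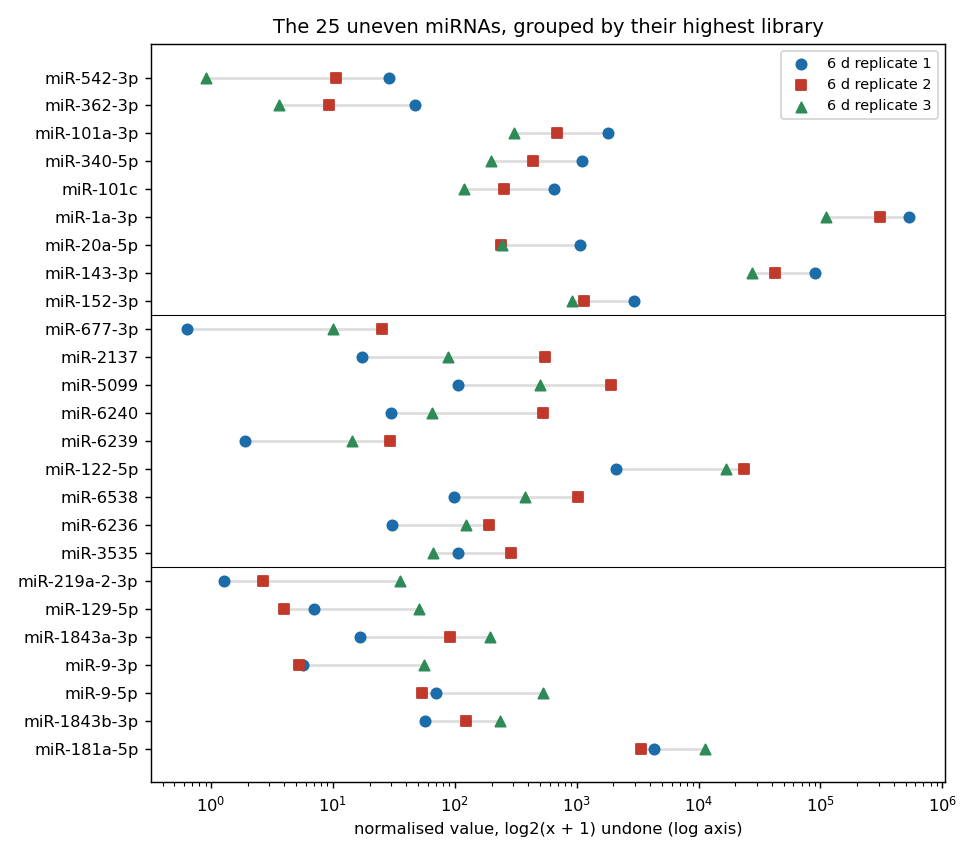
Normalised values (x, log axis) of the 25 uneven miRNAs in replicates 1, 2 and 3, grouped from the top by the library in which they were highest, 9 in replicate 1, 9 in replicate 2 and 7 in replicate 3. In the middle group replicate 1 is lowest for all but miR-3535.

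A group of rows treated here as structural-RNA-like, a list chosen with earlier results of these data known, held its largest share of reads in replicate 2. Of the 13 listed rows in the files, miR-3963 was at 0 in all 3 libraries and 7 had a mean of at least 10. All 7 were highest in replicate 2 on the deposited scale, as were 68 of all 272, and 6 of the 7 were uneven. Among these, miR-6239 passed the mean of 10 only through replicate 2, so its highest library was fixed by that limit. The median ratio of the 7, which is that of miR-6239, was 15.2, against 2.10 for all 272. The list held 0.0291% of the reads of replicate 1, 0.483% of replicate 2 and 0.238% of replicate 3, against 0.0169% to 0.0279% at 0 h. That 0 h share was mostly miR-5099, with 841, 1263 and 1973 reads. Of every 1000000 reads it took 160 to 270 at 0 h, and 87.8, 2077 and 901 in replicates 1, 2 and 3. In replicate 1 it thus lay below the 0 h range. By contrast, miR-6538 took 0.506 to 0.685 at 0 h and 82.0, 1106 and 674 at 6 d. miR-2137, miR-6240 and miR-6236 were also above their 0 h ranges in all 3 libraries. These differences were not tested. By library totals 5 of the 7 were highest in replicate 2 and 2 in replicate 3, against 43 and 186 of all 272. All 7 were uneven there, as were 49 of all 272.

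The members were low in replicate 1 and differed in how far replicate 3 fell short of replicate 2. Reads of miR-2137 were 27, 418 and 97, with normalised values of 17.2, 553 and 87.5 and a ratio of 32.2 (21.8 to 49.4). miR-6240 had 29.9, 527 and 65.0, a ratio of 17.6. The most abundant of the list, miR-5099, had 106, 1923 and 502, a ratio of 18.2 (15.5 to 21.5). These 3 rows were several times higher in replicate 2 than in replicate 3, whereas miR-6236, at 30.6, 192 and 122.7, was closer in those 2. miR-6538 had 98.7, 1024 and 375, a ratio of 10.4 (8.73 to 12.4). At 0 h, miR-2137 had 2, 0 and 0 reads and miR-6538 3, 4 and 5, so both were at or near the floor there.

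Exact matches of whole mature sequences to annotated structural transcripts were sought in GENCODE M21, on the sense strand. Of 20 uneven miRNAs with a sequence, 4 matched: miR-1843a-3p to Scarna3b, miR-1843b-3p to Scarna3a, miR-3535 to the small nucleolar RNA Gm24148 and miR-677-3p to that named Mir677. Of 18 even ones, 0 matched, and of all 235 with a sequence, 11 matched (4.68%). For miR-2137, miR-6538, miR-6236, miR-6239 and miR-6240 no match was found, but 28S ribosomal RNA was not among the transcripts searched, so a match to it was not examined. Reads of such rows may come from the structural RNA, the miRNA or both, which these counts cannot tell apart. Of 22 miRNAs numbered 1000 or above, 9 were uneven, 6 of them the structural-RNA-like rows already described, and 0 were even. Replicate 2 was highest for 13 of the 22 and for 68 of all 272.

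The 2 arms of miR-1843a differed in how unequal they were. The 5p arm had 344, 148 and 136 reads and the 3p arm 26, 69 and 215, so that the log2 ratio of 5p to 3p was 3.68, 1.09 and -0.66 in replicates 1, 2 and 3. A ratio within a library does not depend on its scale. Of every 1000000 reads, the 5p arm took 182, 212 and 220 and the 3p arm 13.8, 98.6 and 348, so that as shares both were highest in replicate 3, while on the deposited scale the 5p arm was highest in replicate 1. The log2 ratio of 5p to 3p of miR-1843b was 2.68, 1.70 and 0.38, in the same order. For miR-133a the ratio was -4.12, -5.41 and -5.83, and for miR-30a 7.25, 6.29 and 5.61. In contrast, that of miR-22 ranged over 0.30 and that of miR-126a over 0.31. Of the 26 precursors with at least 20 reads of each arm in each library, the log2 ratio ranged over more than 1 in 13. Of 49 precursors with both arms at a mean of at least 10, 23 (46.9%) had both arms highest in the same library. Over all 272, replicates 1, 2 and 3 were highest for 124, 68 and 80, so unrelated rows often share a highest library too. Whether arms did so more often was not tested.

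The 9 uneven miRNAs that were highest in replicate 1 included several with few G and C bases. Reads of miR-101a-3p were 2839, 517 and 341, a normalised ratio of 5.87 (5.25 to 6.59). The ratio of miR-340-5p was 5.53 (4.803 to 6.39) and that of miR-20a-5p, of the growth-promoting miR-17-92 cluster, 4.42 (3.79 to 5.18). All 5 cluster members of mean 10 or more were highest in replicate 1, as were 124 of all 272. By library totals 3 of the 5 were, against 43 of all 272. The 2 largest ratios of this kind were of rare miRNAs: miR-542-3p had 45, 8 and 1 reads, a ratio of 31.7 (5.41 to 1281), and miR-362-3p had 74, 7 and 4. Both passed the mean of 10 only through replicate 1.

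**Figure D4:**
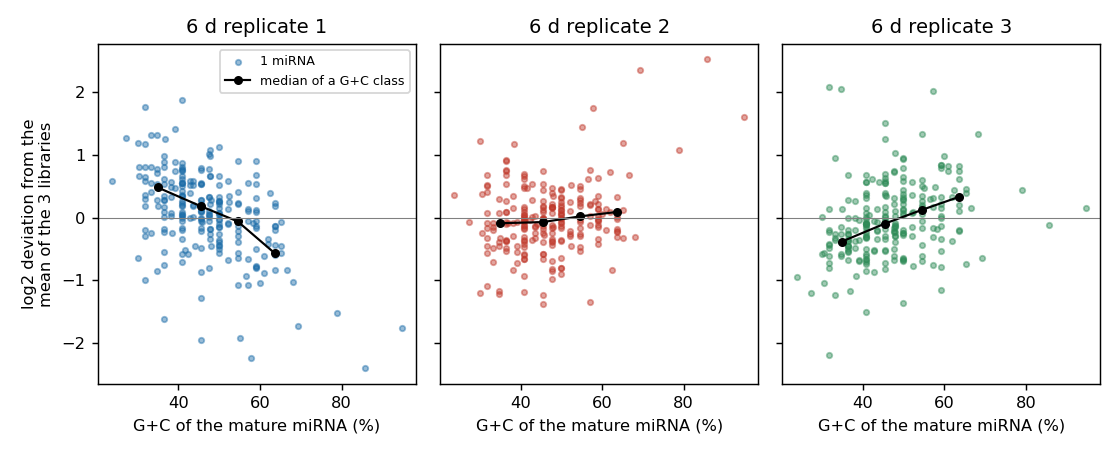
Log2 deviation of each miRNA from its mean over the 3 libraries (y) against the share of G and C in its mature sequence (x, percent), for replicates 1, 2 and 3, with 1 point per miRNA (235 with a sequence). Black points join the median of each class of G and C content: it falls from 0.48 to -0.57 in replicate 1 and rises from -0.38 to 0.33 in replicate 3.

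Base composition ran with the libraries. In replicate 1 the median log2 deviation from the mean of the 3 libraries was 0.48 for the 56 miRNAs with under 40% G and C, 0.18 for 89 with 40% to 50%, -0.06 for 67 with 50% to 60% and -0.57 for 23 with 60% or more. In replicate 3 the order was the reverse, with -0.38, -0.09, 0.13 and 0.33. Replicate 2 lay between, from -0.09 to 0.09. Across 235 miRNAs, Pearson's r of G and C content with the deviation was -0.50, 0.28 and 0.30, and Spearman's rho was -0.45, 0.15 and 0.37. The points share a library, and miRNAs are not independent replicates. Since deviations are taken from the mean of the same 3 libraries, their trends constrain each other and are not separate observations. With reads scaled by totals, r was -0.50, 0.26 and 0.29 across 247 miRNAs at 6 d. At 0 h it was -0.12, -0.11 and 0.17 across 212. Uneven miRNAs had a median of 36.8% G and C where replicate 1 was highest, 69.2% for replicate 2 and 46.6% for replicate 3. Its part in which miRNAs were uneven was not tested.

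Some families with a common seed had the same highest library. Over all 272 miRNAs, replicate 1 was highest for 124, replicate 2 for 68 and replicate 3 for 80 on the deposited scale, and for 43, 43 and 186 by library totals. All 9 members of the let-7 family with seed GAGGUAG were highest in replicate 2, among them let-7i-5p at 26819, 38297 and 19002 and let-7a-5p at 1132, 3241 and 1898. By library totals, 7 of the 9 were. The let-7 miRNAs promote differentiation and are abundant in adult tissue, and the family held 3.96%, 8.77% and 7.39% of the reads. All 6 members with the seed AAAGUGC, of the miR-17 family, were highest in replicate 1, against 3 of the 6 by library totals. Over the 28 seeds shared by 2 or more of the 272, the highest library was the same for 15, and for 17 by library totals. Since replicate 3 was highest for 186 of the 272 by library totals, unrelated rows often share it too. Whether seed families shared a highest library more often than unrelated rows was not tested. Of the 12 seeds with 3 or more members, 5 had the same highest library on the deposited scale. Members of a family can share reads and base composition.

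Even miRNAs included several that are abundant in heart and vessels. Only miRNAs with many reads can have a whole interval under 1.5, so their abundance as such follows from the definition. With a mean of at least 100 required, the even miRNAs still numbered 23. The narrowest spread among those of the 8 highest means was of miR-22-3p, a miRNA of cardiac muscle hypertrophy, with 3477, 3441 and 3530, a ratio of 1.03 (0.976 to 1.08). For miR-99a-5p, values were 23575, 25109 and 30467, with a ratio of 1.29. Others were miR-25-3p at 1.38, a member of the miR-106b-25 cluster, and miR-27b-3p at 1.45. Of 11 miRNAs often used as reference genes in qPCR, 2 were even, miR-25-3p and miR-24-3p, while 6 were intermediate, among them miR-191-5p at 197, 340 and 470 and miR-16-5p at 3792, 3088 and 1451. The limit for even fell between miR-30e-3p, whose interval reached 1.499, and miR-181d-5p, at 1.503. That for uneven fell between miR-152-3p, whose interval started at 3.04, and miR-6516-3p, at 2.97.

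**Figure D5:**
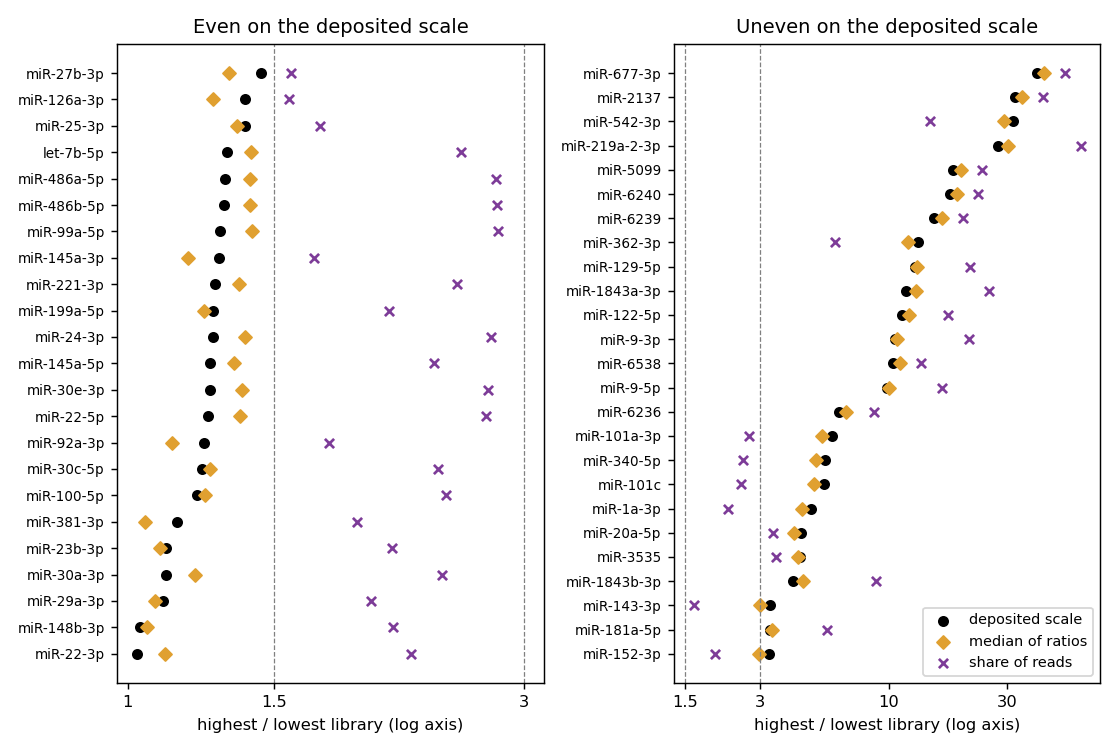
Ratio of the highest to the lowest library (x, log axis) of the 23 even (left) and 25 uneven (right) miRNAs on the deposited scale, with median-of-ratios factors and as shares of reads. Dashed lines mark ratios of 1.5 and 3. Every even miRNA moves beyond 1.5 as a share of reads, while the 9 highest in replicate 1 move to the left.

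Which miRNAs were even depended on the scale. On the deposited scale 19 of the 23 stayed even with median-of-ratios factors, but 0 did as shares of reads, where the ratio of miR-22-3p was 2.19 and that of miR-99a-5p 2.79. By shares, the intermediate miR-148a-3p, a miRNA of many tissues and the second in rank, was the steadier, with 14.2%, 15.1% and 15.3%. The median log2 deviation over the 272 miRNAs was 0.11, -0.04 and -0.10 in replicates 1, 2 and 3 on the deposited scale, and -0.39, -0.16 and 0.51 by library totals. Of the 25 uneven miRNAs, 15 were uneven on all 3 scales, 8 of them highest in replicate 2, 7 in replicate 3 and 0 in replicate 1. They comprise 6 of the structural-RNA-like rows, miR-677-3p and miR-122-5p in replicate 2, and miR-9-5p, miR-9-3p, miR-129-5p, miR-219a-2-3p, miR-181a-5p, miR-1843a-3p and miR-1843b-3p in replicate 3. Among the 15, miR-677-3p and miR-6239 passed the mean of 10 only through replicate 2, and miR-9-3p, miR-129-5p and miR-219a-2-3p only through replicate 3. As shares, miR-122-5p and miR-6236 were slightly higher in replicate 3 than in replicate 2.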

How the data were processed

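Small RNA was measured in mouse myocardium, 3 libraries at 6 d and 3 at 0 h. Trizol extraction and the NEBNext small RNA kit are named per the labels' protocols. The tools named, without their roles, are STAR 2.5.3a, cutadapt 2.8, Trimmomatic 0.39 and FastQC, per the submitters' processing notes. How reads were counted, and with which annotation and build, is not given in the sources used here.

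The deposited file of 0 h replicate 1 holds counts. Each of the remaining 5, as deposited, gives log2 of x + 1 to 3 decimals. Their scale factor is not stated. Each x of the 6 d files was a whole multiple of what 1 read was worth, within the rounding of 0.0005, for all 471, 470 and 486 values that could be tested. Rows without a name (1604 per file) were left out.

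Ratios, exact intervals (Clopper-Pearson), shares and G and C content were computed with Python 3.11.15, numpy 2.4.6, pandas 2.3.3 and scipy 1.17.1, and the steps were tested on simulated data. No comparison of conditions was tested. No molecular identifiers were read, so intervals and floors describe counting error alone. A floor of 3 reads was 1.91, 3.97 and 2.71 normalised at 6 d. The chi-square per degree of freedom was at least 262 in each pair of libraries, so each was counted as 1 sample.

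Members, lists and limits were chosen with earlier results of these data known. Named miRNAs are the 10 with the highest mean, the 5 uneven ones of largest ratio per highest library, the 8 even ones of highest mean, and up to 5 per list. Other miRNAs named were chosen after their values were seen. In 4 pairs the rows were within 2% of each other and share reads: let-7c-2-3p with let-7a-1-3p, miR-374c-5p with miR-374b-5p, miR-199b-3p with miR-199a-3p, and miR-486b-5p with miR-486a-5p. Library totals, median-of-ratios factors, other limits and means, and leaving out rows or libraries were tried.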

Additional observations from a re-analysis of the deposited data

How the results depend on the processing

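Of the 42 values of counts, medians and the share of the 10 most abundant recomputed under other settings, 25 stayed within their limits. With reads scaled by library totals, even miRNAs numbered 13, uneven ones 51 and the median ratio was 2.40. Leaving out 1 library gave 49 to 55 even miRNAs, 9 to 19 uneven ones and a median ratio of 1.47 to 1.61, where fewer libraries are compared. Limits of 2 and 4, and of 2 and 2, gave 59 even miRNAs, and limits of 2 and 2 gave 71 uneven ones. Without structural-RNA-like and late-numbered rows, 16 were uneven. The median ratio was 2.40 for means of at least 1 and 1.99 for means of at least 100. With miR-1a-3p left out of the total, mean shares of lists were 0.425% for heart and striated muscle, 0.187% for cardiac myosin genes, 0.239% for skeletal muscle, 5.10% for endothelium, 9.07% for smooth muscle, 3.80% for fibroblasts, 15.8% for red blood cells, 0.838% for leukocytes, 0.325% for epithelium, 0.0565% for ciliated airway, 0.433% for the Hox cluster, 9.84% for let-7, 4.39% for miR-30 5p, 0.102% for miR-30 3p, 0.203% for miR-17-92 and 5.798% for the qPCR references, since the total shrinks. No paired analysis was possible because only 1 group was described and no groups were compared. Depth limits the class of the 173 undetermined miRNAs.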

Other observations

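The imprinted Dlk1-Dio3 cluster, a large block of miRNAs expressed from the maternal chromosome, had 18 of 50 members with a mean of at least 10. Of these, 9 were highest in replicate 3, 8 in replicate 1 and 1 in replicate 2, against 80, 124 and 68 of all 272. Their median ratio was 2.09, beside 2.10 over all 272. One, miR-381-3p, was even, and none was uneven. By library totals 13 of the 18 were highest in replicate 3, as were 186 of all 272, a like share. The cluster held 0.187%, 0.217% and 0.426% of the reads of replicates 1, 2 and 3.

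The miR-30 5p family, abundant in heart and suppressive of fibrosis genes, held 2.99%, 2.33% and 3.45%. Of its 5 members 4 were highest in replicate 1 on the deposited scale and 1 by library totals, as were 124 and 43 of all 272. Among the 5, 1 was even (miR-30c-5p) and 3 were intermediate, against 23 and 51 of all 272. The 2 miRNAs of the Hox clusters with a mean of at least 10, miR-10a-5p and miR-10b-5p, were both intermediate. They were highest in replicate 1 on the deposited scale and in replicate 3 by library totals, as were 124 and 186 of all 272. The miR-183 cluster, of sensory and epithelial cells, held 0.00730%, 0.00729% and 0.0151%, with all 3 members undetermined.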
